A study of Homo sapiens with 6 samples.

Results

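The 37 genes of the human mitochondrial genome were examined in K562 cells with and without doxycycline (Dox), which switches on Flag-PCBP1. Members were all genes of GENCODE 44 whose symbol begins with MT- and that lie on chromosome M, 37 of 62252 genes in all. They comprise 2 rRNA genes, 13 protein genes and 22 tRNA genes, 28 of them transcribed from the heavy strand and 9 from the light strand. K562 is a human erythroleukemia cell line. PolyA RNA was sequenced from 3 −Dox and 3 +Dox libraries at depths of 70905656 to 84177316 estimated counts. Both groups carry the Flag-PCBP1 cassette under a tet-inducible promoter, in a polyclonal line made by cassette exchange at the AAVS1 site of a K562 flox line that was grown from a single cell. Only +Dox cells received the drug and made Flag-PCBP1, and the effects of the drug and of the protein cannot be told apart in this design. The dose and the time of Dox for these libraries were not given in the sources used here. Nothing in the labels says that the replicates came from separate cultures, so p-values measure the spread between these libraries, which may be technical.

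The mitochondrial genome is a circle whose heavy and light strands are each transcribed into long precursors that span many genes. Most rRNAs and mRNAs are flanked by tRNAs, and excision of the tRNAs by RNase P and ELAC2 releases the RNAs between them. Levels of single mRNAs can therefore differ widely even though they start from a shared precursor, because cleavage, polyadenylation and decay act on each RNA. PCBP1, a cytosolic and nuclear protein, binds C-rich RNA and delivers iron, which the respiratory chain uses in heme and iron-sulfur clusters. Dox belongs to the tetracyclines, antibiotics that bind bacterial ribosomes and also act on the ribosomes of mitochondria.

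PCBP1 itself (ENSG00000169564.7) matched the labels in every library. Levels are given in CPM, counts scaled by library size and by a normalization factor (TMM, 0.974 to 1.03), so CPM totals differ between libraries. The normalized count of PCBP1 was 247.4, 269.4 and 266.7 CPM in −Dox and 1029, 936 and 1037 CPM in +Dox. The groups did not overlap, and the log2 fold change (+Dox over −Dox) was 1.94 (SE 0.055, edgeR adjusted p = 5.22e-10). The files do not separate reads of the cassette from those of the cell's own PCBP1. Markers of K562 cells were detected, led by the fetal globin HBG2, with 3579 ± 248 CPM (SD, n = 3) in −Dox and 3618 ± 180 CPM in +Dox. Among such markers, EPOR, KLF1 and TAL1 rose with Dox, by 0.97, 0.46 and 0.44 on the log2 scale, and HBZ and LMO2 fell, by 0.40 and 0.20, although LMO2 passed the test in only 2 of the 6 fits with 1 library left out (edgeR adjusted p up to 0.0996). Of 12 markers of other cell types, MS4A1 (B cells) was at 0 in all libraries, and CD3E (T cells), MPO (myeloid cells) and CD14 (monocytes) stayed at or below 0.187 CPM. The most abundant of the 12 was KRT8, with 333 ± 48.7 CPM in −Dox against 293 ± 27.7 CPM in +Dox, and the summed level of the list was 867, 934 and 1037 CPM in −Dox against 786, 756 and 874 CPM in +Dox. Of the 8 that could be tested none rose, and 2 fell, against 7.68% lower among all genes tested (PTPRC, a pan-leukocyte phosphatase with 199 CPM in −Dox, by 0.32, and LYZ, lysozyme, by 0.47). The part of these marker changes in the results below was not tested.

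Mitochondrial transcripts were among the most abundant RNAs of these cells. They took 9.41%, 9.19% and 8.80% of the estimated counts in the −Dox libraries and 9.16%, 9.03% and 9.33% in the +Dox libraries. The shares of the groups overlapped, with means of 9.13% ± 0.305 and 9.17% ± 0.154 (SD, n = 3). The difference of the means was 0.0381 percentage points in counts and 0.929 percentage points in TPM, both higher in +Dox. In counts its sign was not stable, at -0.126 to 0.174 percentage points with 1 library left out. Most of the difference in TPM was in MT-ATP8, at 46677 TPM in −Dox and 55291 TPM in +Dox. The effective length of MT-ATP8, explained below, was only 22 to 26 bases. In each library 8 of the 10 genes with the most counts were mitochondrial, behind the nuclear gene EEF1A1, a translation elongation factor. The 8 were MT-CO1, MT-CO3, MT-ND4, MT-RNR2, MT-ATP6, MT-CO2, MT-ND2 and MT-CYB, while MT-ND6 ranked between 938 and 1399. In bulk RNA, fewer mitochondrial transcripts per cell and fewer cells that carry them cannot be told apart.

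The largest differences in this set lay between genes rather than between groups. Per kilobase of annotated gene, the −Dox level ran from 16751 ± 448 CPM for MT-CO3 to 287 ± 16.8 CPM for MT-ND6, a 58.4-fold range. These are levels in polyA-selected RNA, so differences between genes may include unequal recovery by the tail. MT-CO3 was followed by MT-ATP6 (13690.2 ± 296), MT-CO2 (12930.3 ± 272), MT-ND4 (9630.5 ± 597), MT-CO1 (9535 ± 466), MT-ND2 (7649 ± 558), MT-RNR2 (7071 ± 286), MT-ATP8 (5871 ± 385) and MT-CYB (4321 ± 211 CPM per kilobase). The lower levels were those of MT-ND3 (3886 ± 476), MT-ND4L (3781 ± 460), MT-ND1 (2317 ± 132), MT-RNR1 (1722 ± 147) and MT-ND5 (558 ± 45.1 CPM per kilobase). Neighbours in this order whose −Dox libraries overlapped were MT-ND4 with MT-CO1, MT-ND2 with MT-RNR2, MT-CYB with MT-ND3, and MT-ND3 with MT-ND4L. Position along the genome did not order the levels, since MT-CYB at the far end of the heavy strand stood above MT-ND1 near its start, and MT-ND5 next to it was the lowest heavy-strand mRNA.

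**Figure D1:**
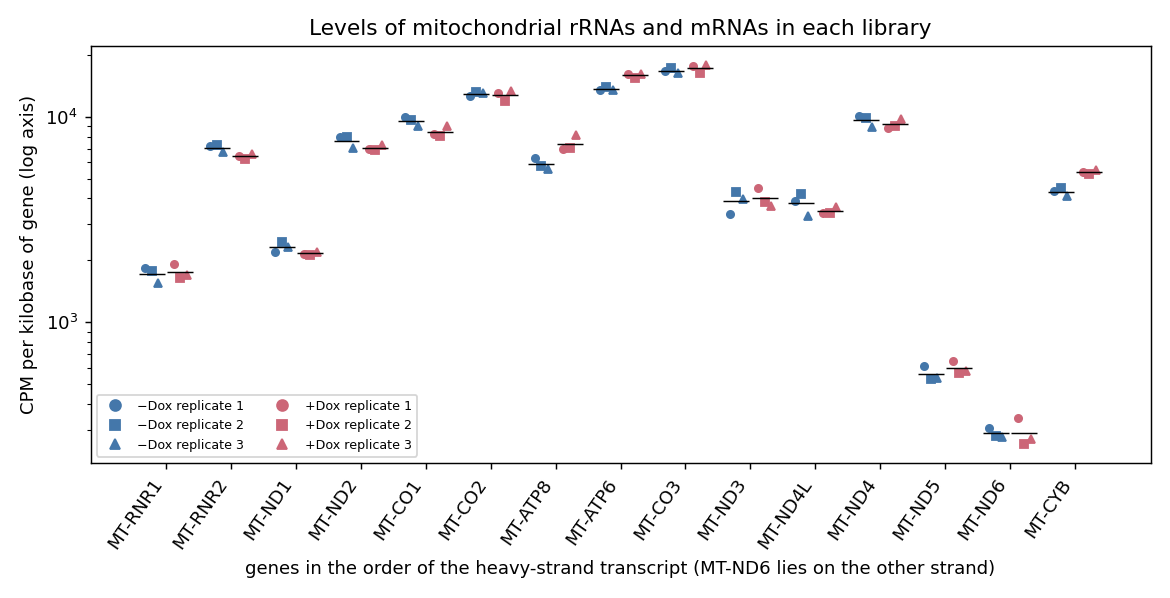
Level of each of the 15 mitochondrial genes with counts in each library, as CPM per kilobase of gene on a log axis, with genes in genome order from left to right, −Dox libraries in blue, +Dox in red and black lines at the mean of each group. The genes span a 58.4-fold range in −Dox, and MT-CYB, MT-ATP8 and MT-ATP6 are the genes whose +Dox points all lie above the −Dox points.

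The order of the shortest genes depends on the length scale. The deposited TPM values divide by effective length, the number of positions at which a fragment can start, which was 22 to 26 bases for MT-ATP8 against 207 annotated bases, 49 to 58 for MT-ND4L against 297, and 76 to 95 for MT-ND3 against 346. On the TPM scale MT-ATP8 was therefore the highest gene, with 46677 ± 1494 TPM in −Dox and 55291 ± 1784 TPM in +Dox, and the −Dox range over the 15 genes was 88.9-fold. MT-ND6 had the lowest mean on both scales, at 525 ± 58.9 TPM in −Dox, where its libraries overlapped in TPM with those of MT-ND5 (584 ± 59.2 TPM).

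With Dox, 3 of the 15 mitochondrial genes with counts rose, 1 fell and 11 did not pass the test, at adjusted p under 0.05 in edgeR. The background over all 21045 genes tested was 15.8% called, 8.16% higher and 7.68% lower. The genes that rose were MT-CYB of complex III and both complex V genes, MT-ATP8 and MT-ATP6, and the gene that fell was MT-CO1 of complex IV. All 4 changes were smaller than 1 on the log2 scale, the size limit of the study for a DEG, which 1.46% of all genes tested passed. The median log2 fold change was 0.0072 over the 15 genes and 0.0061 over all genes tested. CPM of the groups did not overlap for 4 of the 15 genes (3 higher, and MT-RNR2 lower) against 33.2% of all genes tested, 17.4% higher and 15.8% lower. MT-CYB, MT-ATP8 and MT-ATP6 passed the test in each of the 6 fits with 1 library left out. MT-CO1 passed without +Dox replicate 3 (adjusted p = 0.0116), and missed the threshold without −Dox replicate 1 (0.132), 2 (0.113) or 3 (0.0509) and without +Dox replicate 1 (0.149) or 2 (0.122).

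**Figure D2:**
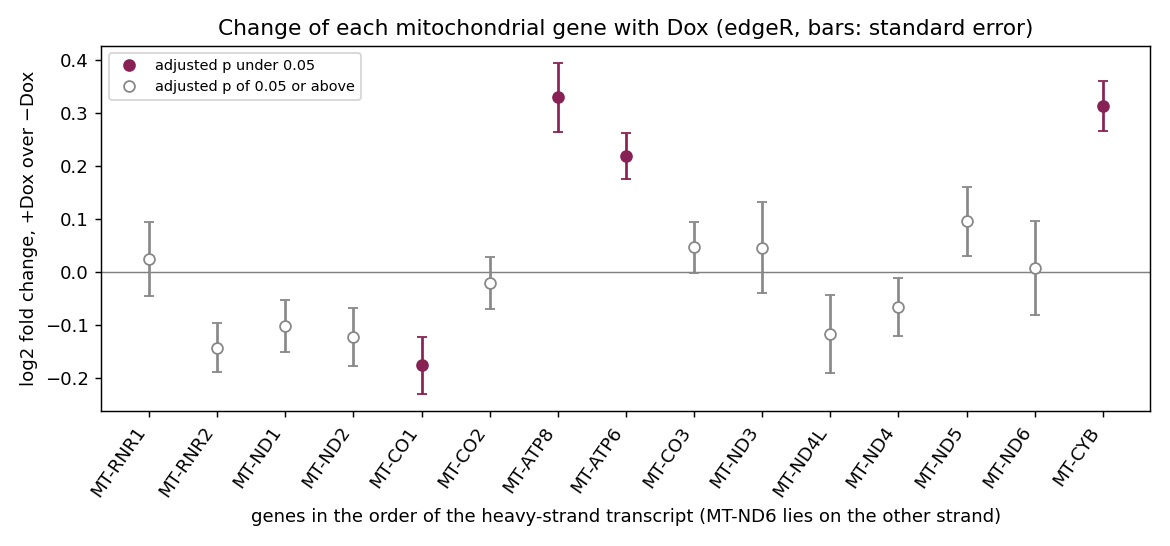
Log2 fold change (+Dox over −Dox) of each of the 15 genes in genome order from the edgeR fit, with standard errors as bars. Filled points passed the test: MT-ATP8, MT-ATP6 and MT-CYB lie at 0.33, 0.22 and 0.31, and MT-CO1 lies at -0.18.

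Complex III receives electrons from ubiquinol and passes them to cytochrome c, and MT-CYB (chrM:14747-15887, GRCh38, heavy strand), cytochrome b, carries heme and is the only one of its subunits made in the organelle. MT-CYB stood at 4955, 5158 and 4678 CPM in −Dox and at 6118, 5996 and 6258 CPM in +Dox. Each +Dox library lay above every −Dox library. Its log2 fold change was 0.31 (SE 0.047, edgeR adjusted p = 7.54e-04), with means of 4930 ± 241 and 6124 ± 131 CPM (SD, n = 3). The rise was present at the scale of TPM as well, from 4992 ± 199 to 6108 ± 160.

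Like several mRNAs of the organelle, the annotated MT-CYB gene ends within its stop codon, which the poly(A) tail completes. The windows below, from chromosome M of GRCh38 on the transcribed strand, show the ends of 3 mRNAs of this kind, with the last base of the mRNA, the T of the incomplete stop codon, in capitals. The first base of the following tRNA comes right after it.
MT-CYB, chrM:15873-15902: tactcaaatgggccTgtccttgtagtataa
MT-ND4, chrM:12123-12152: ccgggttttcctctTgtaaatatagtttaa
MT-CO3, chrM:9976-10005: attgatgagggtctTactcttttagtataa
They are shown because they share this end while their results differed: MT-CYB rose, and MT-ND4 and MT-CO3 did not pass the test. MT-ND2 is an example of this end whose window is not printed, and it did not pass the test either. MT-CO3, with a log2 fold change of 0.05 (SE 0.048, edgeR adjusted p = 0.581), and MT-ND4, with -0.07 (SE 0.055, adjusted p = 0.485), had overlapping groups.

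Complex V, the ATP synthase, has 2 subunits from this genome, MT-ATP8 (chrM:8366-8572) and MT-ATP6 (chrM:8527-9207), which lie in its membrane part and are read from a single bicistronic mRNA. MT-ATP6 forms the path through which protons turn the rotor. MT-ATP8 was measured at 1303, 1195 and 1148 CPM in −Dox and 1446, 1450 and 1686 CPM in +Dox. The groups did not overlap, and +Dox replicate 3 stood highest. Its log2 fold change was 0.33 (SE 0.065, edgeR adjusted p = 0.00435). MT-ATP6 was measured at 9220, 9555 and 9194 CPM in −Dox and 11040.3, 10459 and 11042 CPM in +Dox. Here too the 3 +Dox values exceeded all −Dox values, with a log2 fold change of 0.22 (SE 0.044, edgeR adjusted p = 0.00445).

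The frames of the pair overlap by 46 bases (chrM:8527-8572), and MT-ATP6 shares its last base with the first base of MT-CO3 (chrM:9207-9207). Reads in the shared stretch, and fragments that cross both genes, can be assigned to either, so the counts of MT-ATP8 and MT-ATP6 are not independent. The windows show where the frames meet, with the start codon of MT-ATP6, the stop codon of MT-ATP8 and the last codon of MT-ATP6 in capitals.
MT-ATP6 start within MT-ATP8, chrM:8514-8542: cctgagaaccaaaATGaacgaaaatctgt
MT-ATP8 stop within MT-ATP6, chrM:8557-8585: gcccccacaatccTAGgcctacccgccgc
MT-ATP6 end at MT-CO3, chrM:9193-9222: cacgacaacacaTAAtgacccaccaatcac
In the last window the final A of the stop codon is also the first base of the start codon of MT-CO3, and no tRNA lies between the 2 genes. The ratio of MT-ATP6 to MT-ATP8 counts overlapped between groups (7.69 ± 0.536 in −Dox and 7.13 ± 0.547 in +Dox). The ratio of MT-CO3 to MT-ATP6 did not overlap, at 1.42, 1.41 and 1.39 in −Dox and 1.26, 1.22 and 1.27 in +Dox (exact two-sided permutation test, p = 0.1, the smallest that 3 against 3 libraries allow).

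**Figure D3:**
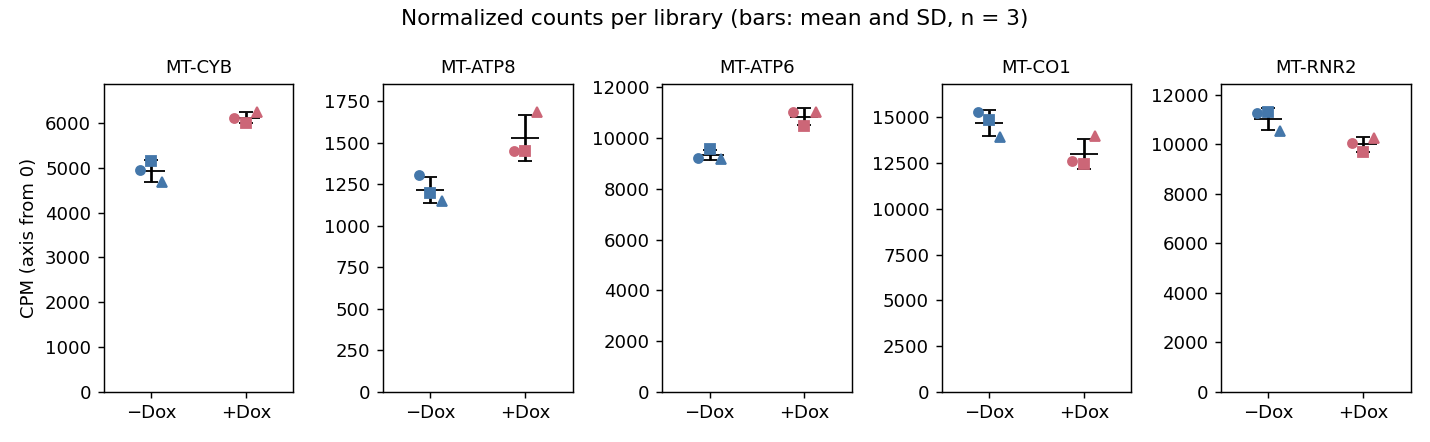
CPM in each library (axes from 0) for the 4 mitochondrial genes that passed the test and for MT-RNR2, with circles, squares and triangles for replicates 1, 2 and 3 and black bars for the mean and SD (n = 3). MT-CYB, MT-ATP8 and MT-ATP6 show no overlap, MT-CO1 overlaps through −Dox replicate 3 and +Dox replicate 3, and MT-RNR2 is lower in +Dox without overlap.

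Complex IV, cytochrome c oxidase, hands electrons to oxygen, and its core is made of MT-CO1, MT-CO2 and MT-CO3. MT-CO1 (chrM:5904-7445), which holds the heme and copper site where oxygen binds, was measured at 15316, 14882 and 13911 CPM in −Dox and 12643, 12445 and 13964 CPM in +Dox. The highest +Dox library lay just above the lowest −Dox library, so the groups overlapped in CPM. In TPM they did not (10217 ± 600.2 in −Dox and 8861 ± 418 in +Dox). Its log2 fold change was -0.18 (SE 0.054, edgeR adjusted p = 0.0451), and the call ended once transcript length entered as an offset (adjusted p = 0.0663). Its annotated end, shown because it differs from those above, carries a complete last codon, AGA, given in capitals, and runs into an antisense tRNA gene, MT-TS1.
MT-CO1, chrM:7431-7460: tacataaaatctAGAcaaaaaaggaaggaa
MT-CO2 (chrM:7586-8269), the subunit that takes electrons from cytochrome c, stood at 8634, 8990.2 and 8908 CPM in −Dox and 8891, 8168 and 9110 CPM in +Dox. MT-CO3 (chrM:9207-9990), a core subunit without metal centres, stood at 13077, 13509 and 12812 CPM in −Dox and 13893, 12788 and 14019.9 CPM in +Dox. For both the ranges overlapped, and MT-CO2 had a log2 fold change of -0.02 (SE 0.049, edgeR adjusted p = 0.842). Summed CPM of the 3 genes was 0.963 times the −Dox mean in +Dox, with overlapping groups, against 1.24 times for complex III and 1.17 times for complex V, whose groups did not overlap.

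Complex I, NADH dehydrogenase, takes 7 subunits from this genome, all in its proton-pumping membrane arm, and none passed the test. MT-ND1 (chrM:3307-4262) was measured at 2092, 2344 and 2211 CPM in −Dox and 2061.5, 2037 and 2100.2 CPM in +Dox, a log2 fold change of -0.10 (SE 0.049, edgeR adjusted p = 0.197). MT-ND2 (chrM:4470-5511) was at 8300.3, 8311 and 7299 CPM in −Dox and 7249, 7160 and 7559 CPM in +Dox (log2 fold change -0.12, SE 0.054, edgeR adjusted p = 0.159). In both genes 2 of the 3 +Dox libraries lay below the lowest −Dox library, and the groups overlapped through +Dox replicate 3. In TPM the groups of MT-ND2 overlapped and those of MT-ND1 did not, at 2832 ± 54.9 in −Dox and 2614 ± 86.8 in +Dox. MT-ND3 (chrM:10059-10404) had 1168, 1493 and 1372 CPM in −Dox and 1557, 1335 and 1273 CPM in +Dox, with a log2 fold change of 0.05 (SE 0.086, edgeR adjusted p = 0.788). MT-ND5 (chrM:12337-14148) had 1106, 957 and 973 CPM in −Dox and 1174, 1023 and 1047 CPM in +Dox, with a log2 fold change of 0.10 (SE 0.065, edgeR adjusted p = 0.377). Replicate spread was wide for MT-ND3, whose −Dox coefficient of variation of 12.2% stood beside a counting error of 0.305%.

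MT-ND4L (chrM:10470-10766) and MT-ND4 (chrM:10760-12137) form the other bicistronic mRNA, with 7 shared bases (chrM:10760-10766), and the window shows the start codon of MT-ND4 in capitals inside the end of MT-ND4L.
MT-ND4 start within MT-ND4L, chrM:10747-10775: taaacctactccaATGctaaaactaatcg
MT-ND4L stood at 1149, 1245 and 975 CPM in −Dox and 1014, 1008 and 1085 CPM in +Dox. MT-ND4 stood at 13915, 13553 and 12344 CPM in −Dox and 12205, 12393 and 13444 CPM in +Dox. The groups overlapped for both, and the log2 fold change of MT-ND4L was -0.12 (SE 0.073, edgeR adjusted p = 0.334). Without −Dox replicate 3, the lowest library, MT-ND4L passed the test (log2 fold change -0.21, adjusted p = 0.0448). Although each pair is read from a shared mRNA, MT-ND4 had 11.9 ± 0.906 times the counts of MT-ND4L in −Dox and 12.2 ± 0.183 times in +Dox, a ratio of counts that is not scaled for the unequal lengths.

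MT-ND6 (chrM:14149-14673) is the protein gene of the light strand. Its values were 160.8, 146.0 and 145.1 CPM in −Dox and 179.0, 134.0 and 141.4 CPM in +Dox. The +Dox libraries held both the highest and the lowest value, and the log2 fold change was 0.01 (SE 0.088, edgeR adjusted p = 0.970). Relative to the counts of the other 12 protein genes, MT-ND6 made up 0.191% ± 0.0103 in −Dox and 0.191% ± 0.0303 in +Dox (SD, n = 3). The library with the most MT-ND6, +Dox replicate 1, was also the highest for MT-ND5, MT-ND3 and MT-RNR1. Strand settings are not given, so MT-ND6 counts could include reads of the opposite strand. PolyA selection could also recover MT-ND6 unequally to the other mRNAs.

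The rRNAs of the mitochondrial ribosome come from the start of the heavy-strand transcript. MT-RNR2 (chrM:1671-3229), the large rRNA, stood at 11252, 11310 and 10511 CPM in −Dox and 10044, 9674 and 10241 CPM in +Dox. All +Dox libraries were below all −Dox libraries, but the log2 fold change of -0.14 (SE 0.046) had an edgeR adjusted p of 0.0535. The call changed with the setting: the adjusted p was 0.0442 with DESeq2 size factors, 0.00888 in DESeq2, 0.0403 with a summed count above 10 and 0.0456 without +Dox replicate 3. MT-RNR2 did not pass in the other 9 of 13 alternatives. Among these were the remaining edgeR fits with 1 library left out (adjusted p from 0.0598 to 0.1695). MT-RNR1 (chrM:648-1601), the small rRNA, stood at 1746, 1699 and 1483 CPM in −Dox and 1837, 1556 and 1620.1 CPM in +Dox. Its groups overlapped (log2 fold change 0.02, SE 0.070, edgeR adjusted p = 0.866). The ratio of MT-RNR2 to MT-RNR1 counts was 6.45, 6.66 and 7.09 in −Dox and 5.47, 6.22 and 6.32 in +Dox, without overlap (exact two-sided permutation test, p = 0.1).

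Sums over the classes were compared as a description, and most of the rRNA sum is MT-RNR2. The summed rRNA level was 12998, 13009 and 11994 CPM in −Dox and 11881, 11231 and 11861 CPM in +Dox, 0.920 times the −Dox mean, without overlap. The summed level of the 13 protein genes was 80397, 81338 and 75970.1 CPM in −Dox and 79471, 76395 and 82731 CPM in +Dox, 1.004 times the −Dox mean, with overlap. Within a library, the ratio of rRNA to mRNA counts was 0.162, 0.160 and 0.158 in −Dox against 0.150, 0.147 and 0.143 in +Dox. The lowest −Dox ratio was thus above the highest +Dox ratio. PolyA selection recovers RNAs by their tails, and these levels are those of the selected RNA.

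Shares within the 13 mRNAs do not depend on the scaling of the library. MT-CO1 was the largest, at 18.6% ± 0.431 of mRNA counts in −Dox and 16.4% ± 0.489 in +Dox (SD, n = 3). In +Dox it was below MT-CO3, at 17.1% ± 0.383, whereas in −Dox MT-CO3 held 16.6% ± 0.301. MT-ATP6 went from 11.8% ± 0.317 to 13.6% ± 0.276, MT-CYB from 6.22% ± 0.105 to 7.70% ± 0.142, and MT-ATP8 from 1.53% ± 0.0786 to 1.92% ± 0.110. MT-ND2 went from 10.05% ± 0.387 to 9.21% ± 0.140. The groups did not overlap for these 5 genes (MT-CYB, MT-ATP6 and MT-ATP8 higher, MT-CO1 and MT-ND2 lower), and they overlapped for MT-CO3 and the remaining 7. Over all genes tested, CPM of the groups did not overlap for 33.2%, although CPM is not a share within the 13. Exact two-sided permutation tests gave p = 0.1 for each of the 5, the smallest value possible, so this design cannot pass a threshold of 0.05. Shares sum to a fixed total, so a higher share of 1 gene lowers others. Without −Dox replicate 3 the number of genes without overlap was 8 rather than 5, but leaving out a library can only keep or raise this number. The number was also 8 with TPM, which added MT-ND1, MT-CO2 and MT-ND4, all lower in +Dox. On that scale MT-ATP8 held 26.0% of the total in −Dox and 29.15% in +Dox.

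Steps between neighbours along the heavy strand were also compared, a set of 13 ratios chosen after values were seen. Besides MT-RNR2 to MT-RNR1 and MT-CO3 to MT-ATP6 above, 2 ratios had no overlap. MT-CO2 to MT-CO1 was 0.564, 0.604 and 0.640 in −Dox and 0.703, 0.656 and 0.652 in +Dox. MT-ATP8 to MT-CO2 was 0.151, 0.133 and 0.129 in −Dox and 0.163, 0.178 and 0.185 in +Dox. The steps from MT-RNR2 to MT-ND1, MT-ND1 to MT-ND2 and MT-ND2 to MT-CO1 were among those that overlapped. Each of the 4 had p = 0.1 in the exact two-sided permutation test, the smallest possible. The 4 of 13 stand beside 33.2% of all genes tested without overlap in CPM, a different measure from these ratios.

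The 22 tRNA genes, 59 to 75 bases long, were listed at 0 counts in all 6 libraries, 14 of them on the plus strand of the reference and 8 on the minus strand. This value says nothing about tRNA levels. None of the 1304 annotated transcripts of at most 75 bases had a count in any library, and the shortest transcript with a count was 126 bases long, with 6103 shorter ones at 0. No tRNA could therefore be compared between groups.

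Copies of mitochondrial genes in the nuclear genome can share reads with their parents. Of 404 annotated copies, 106 had a count, 19 were abundant enough to test, and none passed the edgeR test, nor did any at an unadjusted p under 0.05 or in DESeq2. Together they held counts equal to 0.859% of those of the mitochondrial genes, and 92.2% of these were on MTATP6P1 (chr1:633696-634376), a copy of MT-ATP6 with 10 mismatches over 681 bases (98.5% identity). MTATP6P1 stood at 625, 869 and 665 CPM in −Dox and 830, 631 and 757 CPM in +Dox, with overlap. Its counts were 7.20% of those of MT-ATP6, and reads could be assigned to either. With the counts of copies added to their parents, the share of MT-ATP6 among mRNAs was 12.6% in −Dox and 14.4% in +Dox, again without overlap. The next copies by count were MTND2P28 (0.529% of the counts of MT-ND2), MTND4P12 (0.0361% of MT-ND4), MTCO1P1 (0.0231% of MT-CO1) and MTND1P23 (0.116% of MT-ND1).

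Nuclear genes that transcribe, process and maintain the mitochondrial genome were examined in the same fit. Of 75 genes in 8 lists, 74 were tested, 31 fell, 3 rose and 40 did not pass the test, against a background of 7.68% lower and 8.16% higher. The median log2 fold change was -0.15 over the 74 genes and 0.0061 over all genes tested, and none of the calls passed a log2 fold change of 1. The number of lower calls was 25 to 32 with 1 library left out. With an offset for transcript length, 20 fell and 1 rose, and POLRMT, MTERF2, LRPPRC, TBRG4, MRM3, TFB1M and PPARGC1B were among the genes described next that no longer passed.

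**Figure D4:**
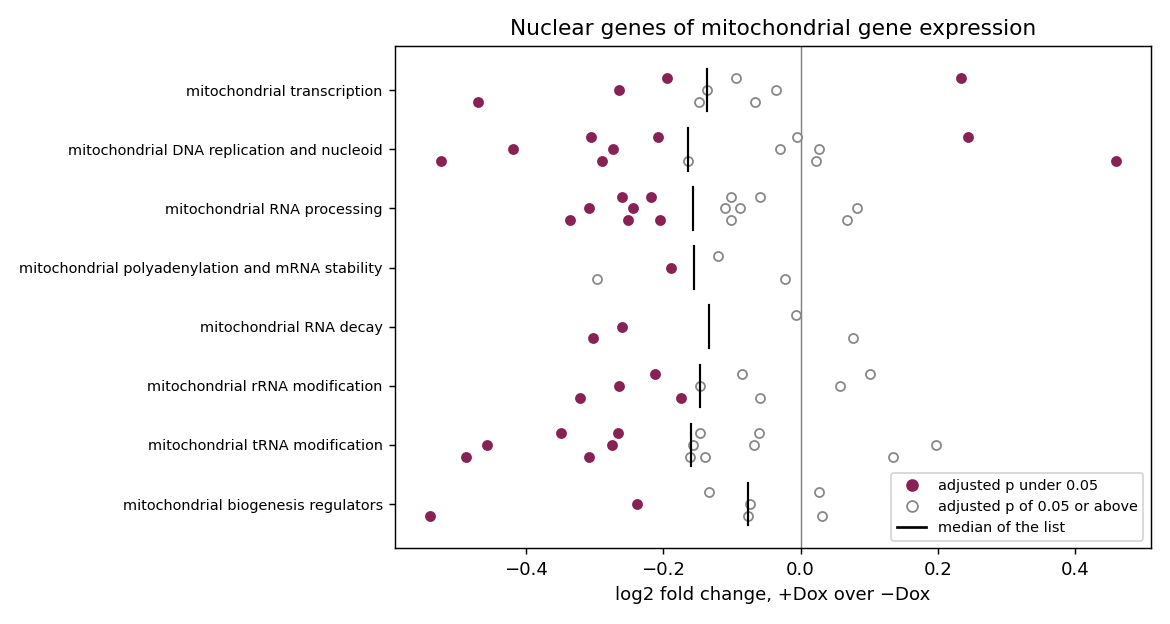
Log2 fold change (+Dox over −Dox, edgeR) of the 74 tested nuclear genes, by list, with filled points for genes that passed the test and black lines at the median of each list. All 8 medians lie below 0, and the 3 filled points to the right of 0 are MTERF2, DNA2 and PRIMPOL.

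Of the 9 transcription genes, 3 fell and 1 rose. TFB2M, which opens the promoter DNA for the polymerase, fell by 0.47 on the log2 scale (SE 0.052, edgeR adjusted p = 8.08e-05), from 105.8 ± 6.24 to 76.4 ± 1.17 CPM (SD, n = 3). The polymerase itself, POLRMT, fell by 0.26 (SE 0.061, adjusted p = 0.0102), from 48.7 ± 2.81 to 40.5 ± 2.22 CPM. TFAM, which bends promoters and packages the genome into nucleoids, fell by 0.19 (SE 0.045, adjusted p = 0.0108), and MTERF2, a DNA-binding protein of the mTERF family, rose by 0.23 (SE 0.052, adjusted p = 0.00841). For each of these genes the CPM of the groups did not overlap. POLRMT did not pass the test without −Dox replicate 3 (adjusted p = 0.053) or without +Dox replicate 3 (0.0568).

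Among 13 replication and nucleoid genes, 6 fell and 2 rose. TWNK, the replicative helicase, fell by 0.52 (SE 0.061, edgeR adjusted p = 1.22e-04), from 25.0 ± 0.0194 to 17.4 ± 0.891 CPM. RNASEH1, which removes RNA from RNA-DNA hybrids, fell by 0.31 (SE 0.047, adjusted p = 8.86e-04). PRIMPOL, a primase-polymerase found in the nucleus and in mitochondria, rose by 0.46 (SE 0.066, adjusted p = 5.08e-04), from 18.0 ± 1.28 to 24.7 ± 0.318 CPM.

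Processing genes fell in 7 of 14 cases and none rose. FASTKD5, needed for mRNA ends that have no tRNA beside them, fell by 0.31 (SE 0.058, edgeR adjusted p = 0.00306), and TRMT10C, a subunit of RNase P, by 0.25 (SE 0.050, adjusted p = 0.0044). TBRG4 (also FASTKD4), a relative of FASTKD5 that stabilizes a subset of mitochondrial mRNAs, fell by 0.24 (SE 0.051, adjusted p = 0.0056). ELAC2, which cuts the other end of tRNAs, fell by 0.22 (SE 0.055, adjusted p = 0.0164), a call that was lost without −Dox replicate 2 (0.0638) or +Dox replicate 3 (0.0754). The nuclease subunit of RNase P, PRORP, had a log2 fold change of -0.06 (SE 0.054, adjusted p = 0.529) and overlapping groups.

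Of the 4 genes of polyadenylation and mRNA stability, 1 fell. LRPPRC, which binds and stabilizes mitochondrial mRNAs, fell by 0.19 (SE 0.050, edgeR adjusted p = 0.0207), from 482 ± 25.4 to 422 ± 12.8 CPM. Its call was lost without −Dox replicate 1 (adjusted p = 0.062), +Dox replicate 1 (0.0777) or +Dox replicate 3 (0.0683). Its partner SLIRP had a log2 fold change of -0.30 (SE 0.105, adjusted p = 0.0753) with overlapping groups, and passed the test without −Dox replicate 1 (0.0133). MTPAP, the poly(A) polymerase, had -0.02 (SE 0.048, adjusted p = 0.812). Both subunits of the RNA-degrading complex fell among the 4 decay genes, the helicase SUPV3L1 by 0.30 (SE 0.047, edgeR adjusted p = 8.9e-04) and the nuclease PNPT1 by 0.26 (SE 0.047, adjusted p = 0.00257).

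Modification enzymes fell in 4 of 9 cases for rRNA and in 6 of 14 for tRNA, and none rose. On the rRNA side these included RPUSD4, a pseudouridine synthase of MT-RNR2 (fell by 0.27, SE 0.051, edgeR adjusted p = 0.00379), and MRM3, a methyltransferase of the same rRNA (fell by 0.32, SE 0.070, adjusted p = 0.00725). TFB1M, which methylates MT-RNR1, fell by 0.21 (SE 0.063, adjusted p = 0.0365) and lost the call without −Dox replicate 2 (0.139) or 3 (0.0846) and without +Dox replicate 1 (0.124) or 2 (0.128). On the tRNA side the 3 with the smallest p were TRMT1 (fell by 0.49, SE 0.061, adjusted p = 2.13e-04), YRDC (fell by 0.46, SE 0.063, adjusted p = 4.08e-04) and NSUN2 (fell by 0.31, SE 0.045, adjusted p = 5.56e-04), which act on cytosolic tRNAs as well.

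Of the 8 regulators of mitochondrial biogenesis, 7 were tested and 2 fell. PPARGC1B, a transcriptional coactivator, fell by 0.54 (SE 0.075, edgeR adjusted p = 4.09e-04), from 36.2 ± 3.72 to 24.9 ± 1.35 CPM. PPRC1, a related coactivator, fell by 0.24 (SE 0.058, adjusted p = 0.0144), and its call was lost without −Dox replicate 2 (0.0625), +Dox replicate 1 (0.0619) or +Dox replicate 3 (0.0644). PPARGC1A, the best-known member of that family, was close to 0 and could not be tested. Across the 8 lists summed CPM was 5567, 5704 and 5555 in −Dox and 5033, 5028 and 5025 in +Dox, without overlap, beside overlapping shares of counts on the mitochondrial genome itself.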

How the data were processed

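PolyA RNA libraries from 3 −Dox and 3 +Dox samples were sequenced paired-end (150 cycles), and the authors quantified them with Salmon 1.10.2. The authors deposited an estimated count, unscaled, and a TPM value, scaled for effective length, for each transcript and library. Index, strand and bias settings are not given in the sources used here. Hence counts of genes that overlap on opposite strands, or have near-identical copies, are uncertain.

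Of 252045 transcripts, 433 did not match GENCODE 44 on GRCh38 (0.138% of counts or less). Estimated counts were summed per gene and rounded. The 37 mitochondrial genes and the gene lists were chosen with earlier results of these data known. Genes with a mean count above 10 (21045 of 62252) were tested with edgeR 4.0.16 in R 4.3.3 (glmQLFit, glmQLFTest, two-sided, Benjamini-Hochberg over all genes tested). CPM were scaled by TMM (factors 0.974 to 1.03). Ratios and shares were compared by exact two-sided permutation tests. The step was tested on simulated data with planted log2 changes of at least 1 in size. Changes as small as those of the mitochondrial genes and the nuclear lists were not simulated. At these depths counting error alone gave a coefficient of variation of at most 0.917% (MT-ND6).

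All mitochondrial genes with counts are named. For nuclear lists the rule took up to 3 genes called by smallest p, plus POLRMT, TFAM, TWNK, LRPPRC, SLIRP, MTPAP, SUPV3L1, PNPT1, TRMT10C, PRORP and ELAC2, and for copies the 5 with the most counts. Alternatives were DESeq2 1.42.0, DESeq2 size factors, other count limits, library sizes without mitochondrial genes, a transcript length offset, a replicate term, TPM, and leaving out each library. Sequences were read from chromosome M of GRCh38. Not every marker of K562 cells is reported here.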

Additional observations from a re-analysis of the deposited data

How the results depend on the processing

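The number of mitochondrial genes called higher was 3 under each alternative except the replicate block. The number called lower, 1, was 2 with DESeq2 size factors, DESeq2 or a summed count above 10, 0 with the length offset or the replicate block, and 0 to 2 with 1 library left out. Nuclear genes called lower numbered 20 and higher 1 with the length offset. With all genes of any count, 1 nuclear copy was called. The difference in the mitochondrial share (0.0381 percentage points) was 0.929 with TPM and -0.126 to 0.174 with 1 library left out. The protein gene ratio (1.004) was 1.056 with TPM. The number of genes without overlap in share (5) was 8 with TPM. It was 5 to 8 with 1 library left out, a step that can only keep or raise it. The range of levels (88.9-fold in TPM) was 58.4-fold in counts per kilobase of annotated length. On the TPM scale, most of the rise in the share and in the protein gene ratio was in MT-ATP8. The causes were not tested.

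Replicate numbers did not pair the libraries: correlations of same-numbered deviations were 0.0075, -0.0605 and -0.0029. With the replicate number as a block, 2 mitochondrial genes were called higher, MT-CYB (adjusted p = 0.0173) and MT-ATP8 (0.0214). MT-ATP6 (0.0844) and MT-CO1 (0.209) were not called. The block left 26 nuclear genes called lower, and of those named TFAM (0.0627), TFB1M (0.0655) and LRPPRC (0.0834) lost the call.

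Changes of sign occurred for genes that did not pass the test. MT-CO2 was 0.011 with the length offset and -0.052 to 0.026 with 1 library left out. PRORP was 0.044 with the length offset. MT-ND6 was -5.8e-04 with DESeq2 size factors, -3.4e-04 in DESeq2, -3.5e-04 with a summed count above 10, -0.0022 with the replicate block and -0.13 to 0.089 with 1 library left out. The ranges with 1 library left out were -0.048 to 0.074 for MT-RNR1 and -0.047 to 0.12 for MT-ND3. That of MTPAP was -0.046 to 0.0016, the latter without +Dox replicate 1. Depth did not limit the 15 genes with counts. The tRNAs, like every transcript shorter than 126 bases, had no counts, and the cause was not tested.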

Other observations

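The mitochondrial mRNAs share a base composition that the choice of members did not use. The 12 mRNAs of the heavy strand held a median of 33.4% C (29.5% to 36.0%) and 11.2% G, against 23.5% C and 24.1% G in the other 21030 genes tested. They held a median of 8.74 runs of CCCC per kilobase, counted without overlap on the transcribed strand, against 3.20 in the other genes, of which 96.4% held at least 1. MT-ATP8 had the most of the set, 14.5 per kilobase from 3 runs in 207 bases, and MT-ND4L the fewest of the heavy-strand mRNAs, 3.37 per kilobase. MT-ND6, from the other strand, was the mirror image, with 7.05% C, no CCCC run and 12 runs of GGGG over 525 bases. Of the genes that rose with Dox, MT-CYB held 34.3% C and 7.89 runs per kilobase, MT-ATP6 33.8% and 8.81, and MT-ATP8 33.3% and the 14.5 above, beside 34.3% and 9.43 in MT-ND4, which was not called, and 30.0% and 7.78 in MT-CO1, which fell. These are counts of letters in annotated sequences, and binding of PCBP1 to these RNAs was not measured in these libraries.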
